A study of Mus musculus with 6 samples.

Results

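The 10 genes described here belong to contractile and vasoactive signalling, and were measured in mouse hepatic stellate cells given forskolin. They are the endothelin receptors Ednra and Ednrb with the ligand gene Edn1, the sphingosine 1-phosphate (S1P) receptors S1pr1, S1pr2 and S1pr3, the lysophosphatidic acid (LPA) receptors Lpar1 and Lpar4, the angiotensin II receptor Agtr1a, and the thrombin receptor F2r (PAR1). They were picked by name, and all 10 have a row among the 24940 gene rows of the count table. The cells were primary stellate cells of female wild-type mice of the strain labelled C57BL6/JBomTac (C57BL/6JBomTac in the growth protocol), 2 days in culture after isolation. Forskolin at 5 µM (group Fsk, 3 libraries) or an equal volume of its solvent DMSO (group Ctrl, 3 libraries) went into the medium already on the cells for 3 h. Forskolin, a plant diterpene, activates adenylyl cyclase directly and so raises cAMP without a receptor ligand. Replicates carry the letters A, B and C. The labels do not say whether the letters stand for separate mice or isolations, so the p-values reflect only how far these samples scatter, and that scatter may be technical.

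Stellate cells wrap the liver sinusoid as its pericytes, and their contraction narrows it. Endothelin-1, angiotensin II, S1P, LPA and thrombin all act on them through receptors of the G protein-coupled family. Through Gq these receptors raise calcium by way of phospholipase C, which raises myosin light chain phosphorylation. Ednrb on sinusoidal endothelium is also known for clearing endothelin and for nitric oxide release, and S1pr1 couples to Gi alone. The second messenger cAMP generally opposes contraction.

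Forskolin raised 3 of these genes, Ednra, Ednrb and S1pr3, and lowered none, called where the Benjamini-Hochberg adjusted p from edgeR (quasi-likelihood test) was under 0.05. Over all 12233 genes tested, 2.80% were called, 2.22% higher and 0.572% lower. The 10 genes were chosen with earlier results of these data known, so their share of calls is a description and not independent evidence. Of the 10 genes, 9 passed the filter on low counts, and 6 of those were not called. Their median log2 fold change was 0.33, beside 0.005 over all genes tested. Values of 4 of the 9 (Ednra, Ednrb, S1pr3 and F2r) did not overlap between the groups, which was also so for 20.2% of all genes tested. The count of 3 became 2 when any one A or B library was left out, where Ednra lost its call. It became 4 without both C libraries, where S1pr1 was called too and 5.86% of 12597 genes were called higher.

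The libraries held between 2770628.5 and 10607997 counts, and the C library of each group was the shallowest. Pairs of libraries within a group that included a C library correlated at 0.925 to 0.930 in log2 CPM across genes, against 0.972 and 0.980 for the pairs of A and B. Stellate markers were present in every library, at 1581 to 1661 summed CPM over 10 genes in DMSO and 1558 to 1766 with forskolin, though Lrat, the retinol esterifying enzyme, was only at 9.94 ± 1.97 and 6.66 ± 1.14 CPM (SD, n = 3), and 1 of the 10, Hand2, rose. Sinusoidal endothelium also expresses Ednrb, Edn1 and S1pr1, so its markers are given beside them. Of the 10 endothelial markers, 3 were tested and 1 rose, Egfl7. Their summed level was 9.40 to 17.0 CPM in DMSO and 57.9 to 87.7 CPM with forskolin. Without Egfl7 the other 9 summed to 5.18 to 14.5 CPM and 8.08 to 13.4 CPM, ranges that overlap. Pecam1, the adhesion molecule of endothelial junctions, was at 4.18 ± 1.73 and 3.96 ± 0.71 CPM, and Stab2 at 0.27 ± 0.47 and 0.35 ± 0.37. Tek, tested but not called, was at 2.04 ± 1.898 and 4.08 ± 2.92 CPM. Cdh5 went the other way, at 1.997 ± 2.034 and 0.568 ± 0.573 CPM. Kdr was at 0.405 ± 0.702 and 0.963 ± 1.218 CPM, and Lyve1 at 0.543 ± 0.514 and 0.522 ± 0.455. Tie1 and Clec4g were counted only in forskolin B, with 3 and 4 counts, and Emcn only in DMSO C, with 3. Smooth muscle markers summed to 168 to 250.5 CPM in DMSO and to 189 to 276 CPM after forskolin, with 0 of 3 tested called. Most of this came from Smtn, at 138 ± 32.0 and 159 ± 13.2 CPM, and Des, at 67.4 ± 5.70 and 79.2 ± 21.5 CPM. Des is also among the stellate markers. Myh11 was at 4.69 ± 1.23 and 4.34 ± 2.04 CPM, and Cnn1, Actg2 and Lmod1 each averaged under 1 CPM in both groups. Hepatocyte markers summed to 8.92 to 9.57 CPM in DMSO and 6.49 to 18.8 CPM with forskolin. Macrophage markers summed to 18.66 to 21.65 CPM in DMSO and 14.19 to 18.27 CPM with forskolin, so they were lower with forskolin without overlap. Mesothelial, cholangiocyte and leukocyte markers were at most 2.83, 10.1 and 7.11 summed CPM in any library. Most markers of these 5 lists were too low to be tested. Tested were 3 of 8 hepatocyte, 2 of 8 macrophage, 0 of 4 mesothelial, 2 of 4 cholangiocyte and 1 of 5 leukocyte markers, and 0 of those were called. In such bulk samples, fewer cells of a type and less RNA per cell cannot be told apart.

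The sequence before the start site is shown for the 3 genes that rose and for S1pr2, because S1pr2 is the one with a cAMP response element. CREB, the transcription factor activated by protein kinase A, binds the element TGACGTCA and its half-site TGACG. Windows of 250 bases ending at the base before the start site were read from RefSeq promoters of GRCm38.p6, whose start sites for the 4 genes shown lie 0 bases from those of the table. Windows were found for 8 of the 10 genes, and Agtr1a and S1pr1 had none. Both strands were searched, and each full element also counts as 2 half-sites. Capitals mark the element or half-site, and the sequences run 5′ to 3′ on the gene's strand.
S1pr3 (chr13:51408368-51408617, plus strand): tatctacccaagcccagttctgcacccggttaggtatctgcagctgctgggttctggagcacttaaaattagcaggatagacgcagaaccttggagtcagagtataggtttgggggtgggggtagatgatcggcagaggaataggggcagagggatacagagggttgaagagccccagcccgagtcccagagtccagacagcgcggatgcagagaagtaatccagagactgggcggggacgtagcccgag
Ednra (chr8:77724453-77724702, minus strand): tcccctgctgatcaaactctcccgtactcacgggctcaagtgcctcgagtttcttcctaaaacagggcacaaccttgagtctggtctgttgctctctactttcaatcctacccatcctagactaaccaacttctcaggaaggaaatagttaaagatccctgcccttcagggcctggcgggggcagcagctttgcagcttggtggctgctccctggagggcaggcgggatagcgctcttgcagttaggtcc
Ednrb (chr14:103843702-103843951, minus strand): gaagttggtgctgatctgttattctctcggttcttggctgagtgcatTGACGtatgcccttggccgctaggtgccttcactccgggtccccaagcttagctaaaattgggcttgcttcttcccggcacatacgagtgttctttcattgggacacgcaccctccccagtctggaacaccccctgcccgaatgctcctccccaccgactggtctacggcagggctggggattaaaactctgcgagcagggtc
S1pr2 (chr9:20976794-20977043, minus strand): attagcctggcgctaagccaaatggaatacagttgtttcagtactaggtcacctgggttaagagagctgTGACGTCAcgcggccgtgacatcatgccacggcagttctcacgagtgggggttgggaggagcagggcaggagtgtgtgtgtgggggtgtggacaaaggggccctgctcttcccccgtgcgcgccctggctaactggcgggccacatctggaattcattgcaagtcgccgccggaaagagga

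The S1pr2 window held the full element 181 to 174 bases upstream of the start. TGACGTCA occurred in 1.55% of 32851 RefSeq promoter windows of the same length. Ednrb held 1 half-site, 203 to 199 bases upstream, and TGACG occurred in 17.8% of windows. Neither motif was in the windows of S1pr3 or Ednra, nor in those of Edn1, Lpar1 (3 windows), Lpar4 and F2r. Within these windows the full element was found only for S1pr2, which was not called, and a lone half-site only for Ednrb, which rose. Whether either motif bears on the changes was not tested. A match of letters is a description and not a binding site.

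Among the endothelin receptors, Ednra couples mainly to Gq and carries the constrictor action of endothelin-1. Its levels were 20.7, 23.2 and 14.2 CPM in DMSO A, B and C and 51.4, 59.1 and 35.4 CPM in forskolin A, B and C. Every forskolin library lay above every DMSO library, and the C library was the lowest of each group. The mean went from 19.4 ± 4.63 to 48.6 ± 12.1 CPM (SD, n = 3 per group), a 2.49-fold rise with a 95% interval of 1.70 to 3.65 (log2 change 1.32 ± 0.25 SE, edgeR adjusted p = 0.0177). Leaving out forskolin A or B gave an adjusted p of 0.1 or 0.106, and leaving out DMSO A or B gave 0.0854 or 0.0554. Ednra lies on chromosome 8 from 77663029 to 77724452 (mm10), and 91 bases of its exons overlap an exon of 4933431K23Rik on the other strand. The library kit is not stated to mark strand, so reads of that stretch cannot be assigned.

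Ednrb, which binds all endothelins with like affinity, was the more abundant of the pair. It stood at 165, 163 and 164 CPM in DMSO A, B and C, a spread of 1.42 CPM (SD). With forskolin it stood at 276, 312 and 241 CPM. The groups were wide apart, and forskolin C was again the lowest of its group. The rise was 1.69-fold with a 95% interval of 1.41 to 2.02 (log2 change 0.75 ± 0.12 SE, edgeR adjusted p = 0.00475). It passed in each of the 18 alternative settings, with adjusted p at most 0.0471. Ednrb is on chromosome 14 from 103814615 to 103843701. The summed endothelial markers did not overlap between the groups with Egfl7 included and overlapped without it, as given above. Whether endothelial cells bear on the rise of Ednrb was not tested.

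Edn1 encodes the precursor of endothelin-1 and was close to the limit of detection. Its counts were 4, 7 and 12 in DMSO A, B and C and 5, 18 and 9 in forskolin A, B and C. In CPM the highest values were those of the C libraries, 4.07 in DMSO and 3.50 with forskolin, where 3 counts already equal 1.02 and 1.17 CPM. The groups overlapped, and the log2 change of 0.12 ± 1.14 (SE) turned negative in 3 of 17 alternative settings. Its 95% interval ran from a fold of 0.187 to 6.27, so that no change of a few-fold was detectable at these counts. Edn1 shares 35 exon bases with Gm47118 on the other strand. The other ligand genes Edn2 and Edn3 had no count in any library.

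**Figure D1:**
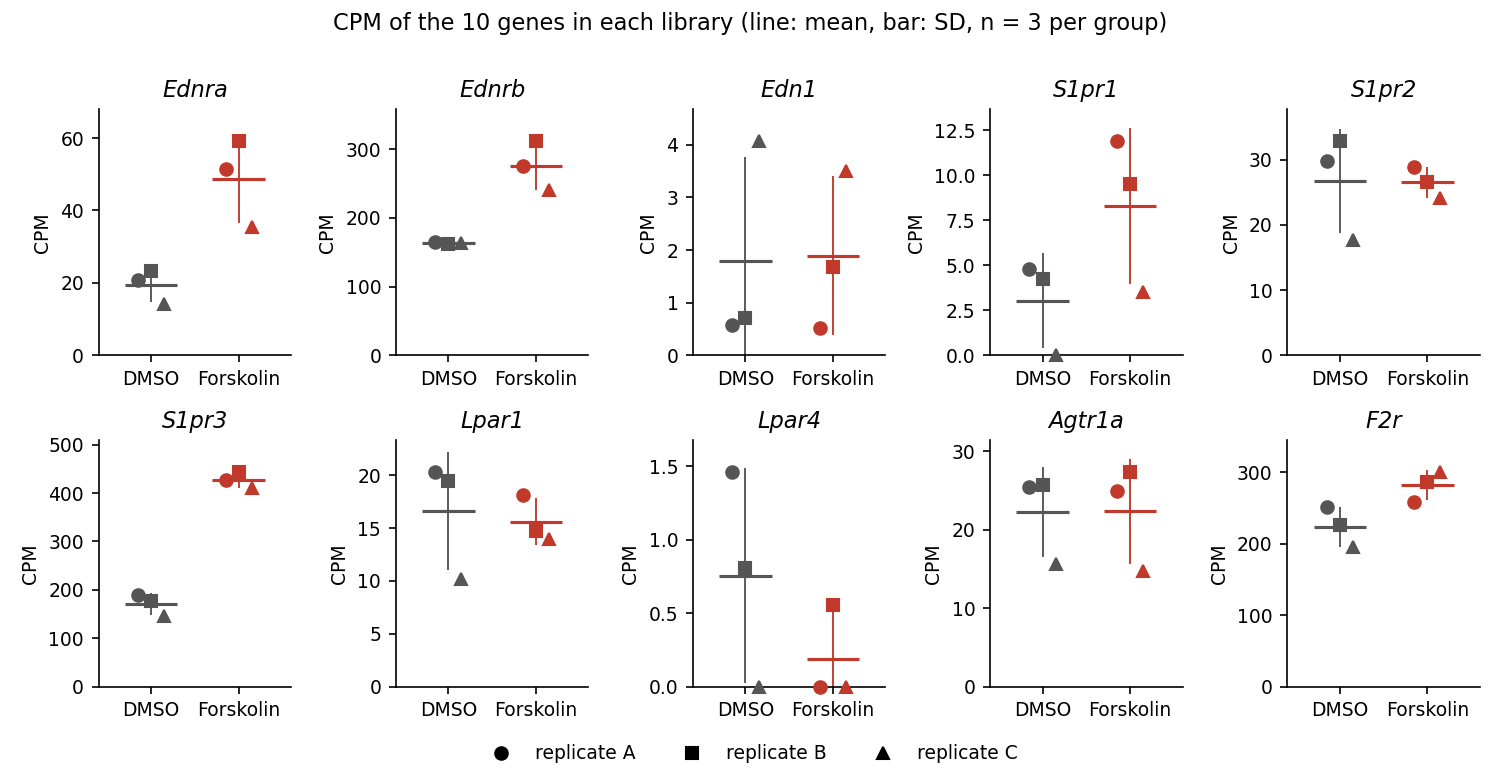
CPM (TMM-scaled, vertical axes from 0, each with its own range) of the 10 genes in DMSO (grey) and forskolin (red), with circles, squares and triangles for replicates A, B and C, a line at the mean and a bar for the SD (n = 3). Ednra, Ednrb, S1pr3 and F2r show no overlap between the groups, while Edn1 and Lpar4 stay under 5 CPM.

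S1pr3, an S1P receptor that couples to several G proteins, Gi and Gq among them, showed the clearest change of the 10. It was at 189, 176 and 145 CPM in DMSO A, B and C and at 427, 443 and 410 CPM in forskolin A, B and C. The lowest forskolin value exceeded the highest DMSO value by far, and the C libraries were the lowest of their groups here too. The mean went from 170 ± 22.8 to 426 ± 16.5 CPM (SD, n = 3 per group), a 2.50-fold rise with a 95% interval of 2.06 to 3.03 (log2 change 1.32 ± 0.12 SE, edgeR adjusted p = 1.95e-04). Over the 18 alternative settings the log2 change ran from 1.22 to 1.41, with adjusted p at most 0.00329. S1pr3 lies on chromosome 13 from 51408618 to 51422797. Of its exon bases, 45 overlap Gm32834 on the other strand.

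S1pr2, another receptor of S1P, was not called. Its levels were 29.8, 32.8 and 17.6 CPM in DMSO A, B and C and 28.9, 26.6 and 24.1 CPM in forskolin A, B and C. The forskolin values all lay inside the DMSO range. The fold was 0.981 with a 95% interval of 0.667 to 1.44 (log2 change −0.03 ± 0.25 SE, edgeR adjusted p = 0.993), an interval that leaves out the fold of S1pr3.

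S1pr1, the Gi-coupled receptor best known from endothelium and lymphocytes, was low. It was at 4.81 and 4.25 CPM in DMSO A and B and had no count in DMSO C, where 3 counts equal 1.02 CPM. Forskolin A, B and C gave 11.9, 9.48 and 3.50 CPM. Both deeper forskolin libraries were thus above all DMSO libraries, while forskolin C fell inside the DMSO range. The log2 change of 1.38 ± 0.78 (SE) was about as large as that of S1pr3 but had a 95% interval from a fold of 0.776 to 8.71 (edgeR adjusted p = 0.572). Without both C libraries it was 1.23 with adjusted p = 0.0475, and over the other 17 settings it stayed above 0.9 without passing. S1pr4 had only 0, 6 and 15 counts in DMSO A, B and C and none with forskolin, and S1pr5 stayed under 1 CPM on average in both groups. Neither S1pr4 nor S1pr5 passed the filter, so they were not tested.

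S1pr3 made up most of the S1P receptor counts per base of transcript. Its share of the summed counts of the 5 S1P receptors was 77.0% ± 2.49 in DMSO and 88.6% ± 1.86 with forskolin (SD, n = 3), without overlap. The share of S1pr2 went from 18.9% ± 3.35 to 8.74% ± 0.52. Shares of 1 family add up to a whole, so these are not independent of each other.

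The LPA receptor Lpar1, which couples to Gi and Gq among others, was at 20.3, 19.4 and 10.2 CPM in DMSO A, B and C and 18.1, 14.7 and 13.99 CPM in forskolin A, B and C. The groups overlapped (fold 0.927, 95% interval 0.579 to 1.48, edgeR adjusted p = 0.954). Lpar4, an LPA receptor of the purinergic cluster that can couple to Gs, had 10, 8 and 0 counts in DMSO A, B and C and 0, 6 and 0 in forskolin A, B and C. It did not pass the filter and was not tested. Agtr1a, the Gq-coupled receptor of angiotensin II, was at 25.5, 25.7 and 15.6 CPM in DMSO and at 25.0, 27.3 and 14.8 CPM with forskolin. Each forskolin library nearly matched the DMSO library of its letter (fold 1.01, 95% interval 0.648 to 1.58, adjusted p = 0.998). The sister gene Agtr1b, close to it in sequence, had no count in any library.

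F2r, the receptor that thrombin switches on by cutting it, was at 251, 226 and 195 CPM in DMSO A, B and C and at 259, 287 and 300.1 CPM in forskolin A, B and C. The groups did not overlap, though DMSO A and forskolin A were only 8 CPM apart. The rise of 1.25-fold (95% interval 1.04 to 1.51, log2 change 0.33 ± 0.12 SE) had an unadjusted p of 0.0231 and an edgeR adjusted p of 0.288. It was not called in any of the 18 alternative settings, and its log2 change stayed positive in all of them, between 0.19 and 0.42.

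**Figure D2:**
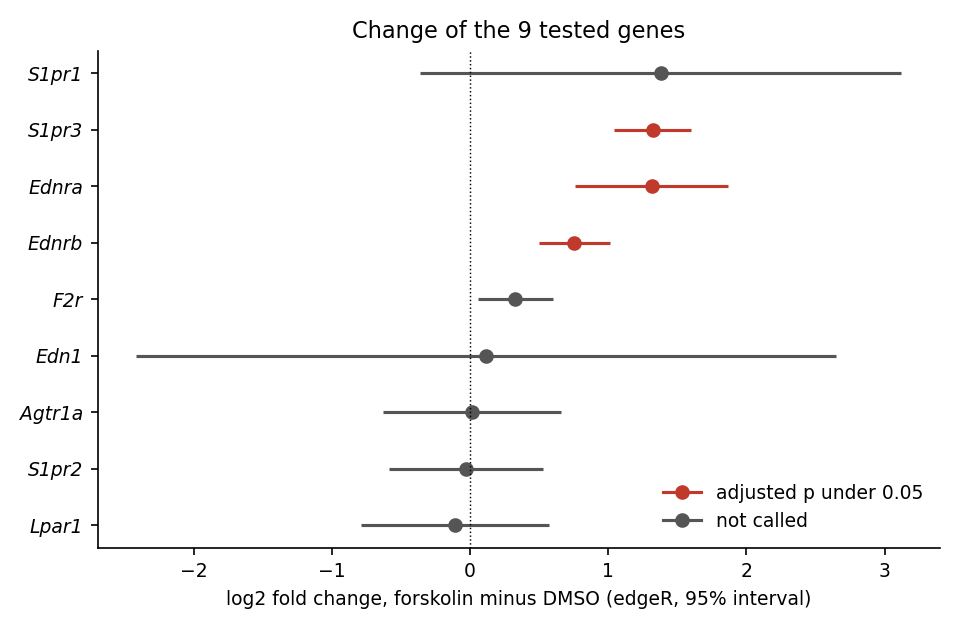
Log2 fold change (horizontal axis, forskolin minus DMSO) of the 9 tested genes by edgeR, with 95% intervals as bars and called genes in red. None of the intervals is adjusted for the number of genes tested. Those of Ednra, Ednrb, S1pr3 and F2r lie above 0, though F2r was not called. The widest are those of the low genes Edn1 and S1pr1.

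Levels were compared between genes as RPKM, which is CPM per kilobase of the transcript length in the table. In DMSO, F2r stood highest at 67.2 ± 8.39 RPKM and was separate from Ednrb at 41.0 ± 0.35, whose range overlapped that of S1pr3 at 38.001 ± 5.09. With forskolin S1pr3 came highest at 95.2 ± 3.67 RPKM, separate from F2r at 84.6 ± 6.28. The range of F2r overlapped that of Ednrb at 69.1 ± 8.88, though F2r was above Ednrb within every forskolin library. Agtr1a and S1pr2 overlapped in both groups, at 9.78 ± 2.54 and 9.51 ± 2.86 RPKM in DMSO and 9.81 ± 2.93 and 9.43 ± 0.85 RPKM with forskolin. Ednra was at 5.33 ± 1.27 RPKM in DMSO, and its range overlapped that of S1pr2 above it and of Lpar1 below it (4.83 ± 1.63). Within every DMSO library S1pr2 was above Ednra, while the order of Ednra and Lpar1 varied. With forskolin Ednra was at 13.4 ± 3.33 RPKM. Its range overlapped that of Agtr1a, though Ednra was above Agtr1a within every forskolin library. S1pr1, Edn1 and Lpar4 were the lowest in both groups, between 0.04 and 2.74 RPKM on average. Among all tested genes ranked by RPKM within a library, S1pr3 stood at percentiles 75.6 to 81.3 in DMSO and 91.7 to 93.7 with forskolin. F2r stood at 87.1 to 91.0 and 91.2 to 92.3.

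Whether receptors differed in their change was asked with ratios within each library, which need no scaling between libraries. Each ratio was log2 of counts plus 2 per base, and 6 ratios were compared between the groups by an exact permutation test (two-sided), whose smallest p with 3 libraries against 3 is 0.1. None could thus pass 0.05. The ratio of S1pr3 to S1pr2 was 2.02 ± 0.29 in DMSO and 3.32 ± 0.10 with forskolin, a difference of 1.30 without overlap (exact permutation p = 0.1, adjusted p = 0.15 over the 6 ratios). That of Agtr1a to Ednra changed sign. It was 0.97, 0.82 and 0.80 in DMSO A, B and C and −0.36, −0.44 and −0.54 in forskolin A, B and C, so Agtr1a was the higher of the pair in every DMSO library and Ednra in every forskolin library (exact permutation p = 0.1, adjusted p = 0.15). The ratio of Ednra to Ednrb was −2.94 ± 0.34 in DMSO and −2.38 ± 0.19 with forskolin, also without overlap (exact permutation p = 0.1, adjusted p = 0.15). Ednra made up 11.5% ± 2.44 of the endothelin receptor counts per base in DMSO and 16.1% ± 1.86 with forskolin. For S1pr2 to S1pr1 the difference was −1.64, with the lowest DMSO ratio at 2.66 and the highest forskolin ratio at 2.65 (exact permutation p = 0.1, adjusted p = 0.15). It was −0.96 without DMSO C, which had no S1pr1 count, and −2.26 with 0.5 added to the counts in place of 2. The ratio of S1pr3 to S1pr1 overlapped between the groups (exact permutation p = 0.8), and its difference of −0.34 became 0.49 without DMSO C. That of Lpar1 to Lpar4 also overlapped (exact permutation p = 0.2) and rests on Lpar4 counts of 10 or fewer.

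**Figure D3:**
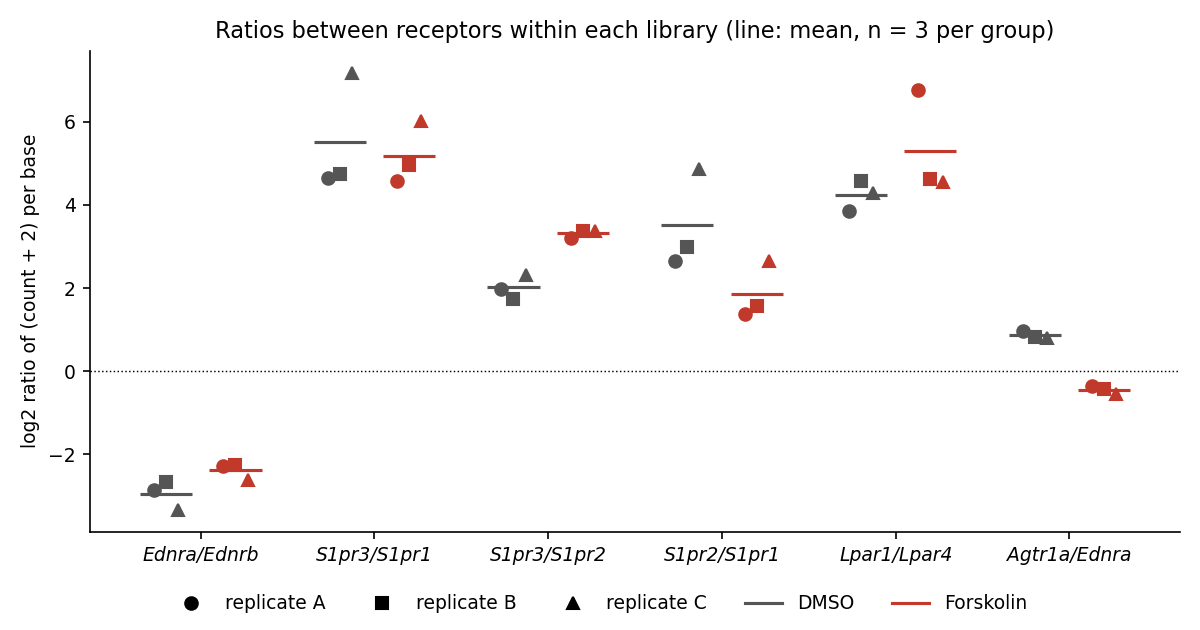
Log2 ratio of counts plus 2 per base (vertical axis) for 6 pairs of receptors within each library, DMSO in grey and forskolin in red, with circles, squares and triangles for replicates A, B and C and a line at the mean. The ratios of S1pr3 to S1pr2 and of Agtr1a to Ednra are tight within groups and apart between them, and the latter crosses 0.

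The genes around these receptors were taken from lists, of which 5 are described. Of 16 genes of ligand supply, 8 were tested and 0 were called by edgeR in either direction, with 2 at an unadjusted p under 0.05 and a median log2 change of 0.11. Over all genes tested, 1477 of 12233 (12.1%) had an unadjusted p under 0.05. The most abundant were Sgpl1, which the list holds although it is the lyase that breaks down S1P, at 382 ± 23.0 and 412 ± 22.3 CPM, and Ece1, the enzyme that cuts endothelin-1 from its precursor. Ece1 averaged 262 ± 61.1 CPM in DMSO against 399 ± 37.3 CPM after forskolin, without overlap (log2 change 0.60 ± 0.17 SE, edgeR adjusted p = 0.121). The 2 genes with an unadjusted p under 0.05 were Ece1 and F3, the tissue factor gene. F3 went from 72.2 ± 22.8 to 117 ± 22.2 CPM, also without overlap (log2 change 0.69 ± 0.225 SE, edgeR adjusted p = 0.202). Ece1 was called in 7 of 18 alternative settings. These were DESeq2 (adjusted p = 0.0227), limma-voom (adjusted p = 0.0495) and the same with sample quality weights (adjusted p = 0.00914), and in edgeR the likelihood ratio test (adjusted p = 0.0242), no filter (adjusted p = 6.29e-04), the replicate block (adjusted p = 0.00325) and the fit without both C libraries (adjusted p = 9.26e-05). Of this list, 1 gene was called by DESeq2, by limma-voom without weights and by the likelihood ratio test, and 2 genes in each of the other 4 settings.

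The list of genes that remove or oppose these ligands held 2 risers and no faller among 5 tested of 7 (median log2 change 0.35). Sgpl1 and the S1P phosphatase gene Sgpp1 were counted under ligand supply instead. They were not called, at log2 changes of 0.11 ± 0.11 and 0.19 ± 0.23 (SE). Thbd, thrombomodulin, which turns thrombin from a clotting into an anticoagulant enzyme, went from 231 ± 90.7 to 663 ± 121 CPM (log2 change 1.52 ± 0.27 SE, edgeR adjusted p = 0.0133). Plpp3, a lipid phosphatase at the cell surface that breaks down LPA and S1P, went from 96.6 ± 19.1 to 164 ± 16.0 CPM (log2 change 0.76 ± 0.15 SE, edgeR adjusted p = 0.0255). Thbd had adjusted p of 0.0632 without forskolin A and 0.0634 without DMSO B. Plpp3 had adjusted p of 0.142 or 0.0991 once forskolin A or B was left out, 0.0708 or 0.0741 once DMSO A or B was, and 0.0756 when scaled by library size alone.

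Of 13 other receptors of these families, 3 were tested and 0 were called by edgeR, with 1 at an unadjusted p under 0.05 and a median log2 change of −0.65. That one was Lpar6, an LPA receptor of the purinergic cluster, with 21.5 ± 6.39 CPM in DMSO against 9.29 ± 3.77 CPM after forskolin, without overlap (log2 change −1.23 ± 0.38 SE, edgeR adjusted p = 0.159). Limma-voom called it lower (adjusted p = 0.0389, and 0.00434 with quality weights), as did the edgeR likelihood ratio test (adjusted p = 0.0388), the fit with no filter (adjusted p = 0.0116) and the fit without both C libraries (adjusted p = 0.00371). DESeq2 called 0 genes of this list. Lpar2 was at 5.70 ± 1.94 and 3.57 ± 3.53 CPM, and the vasopressin receptor gene Avpr1a had no count in any library.

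Of 13 tested G protein and phospholipase C genes, 0 were called by edgeR, DESeq2, limma-voom or the likelihood ratio test, and 0 had an unadjusted p under 0.05 (median log2 change 0.12). Gna13, a G protein alpha subunit, was at 388 ± 30.4 and 458 ± 32.1 CPM, and Gnai3, a Gi alpha subunit, at 404 ± 46.0 and 442 ± 60.2 CPM. Of 11 tested brakes on G protein signalling 1 rose, Rgs2, which speeds up GTP hydrolysis on Gq, from 1.08 ± 1.02 to 31.6 ± 8.06 CPM (log2 change 5.07 ± 0.62 SE, edgeR adjusted p = 0.00117). Its DMSO baseline was near 0, with 0, 12 and 6 counts in A, B and C, so the size of this change is loosely set. The log2 change was 4.43 without DMSO A and 6.35 by limma-voom with sample quality weights, and the gene was called in all 18 alternative settings. The receptor kinase genes Grk2 and Grk5 were at log2 changes of 0.01 ± 0.13 and 0.11 ± 0.19.

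**Figure D4:**
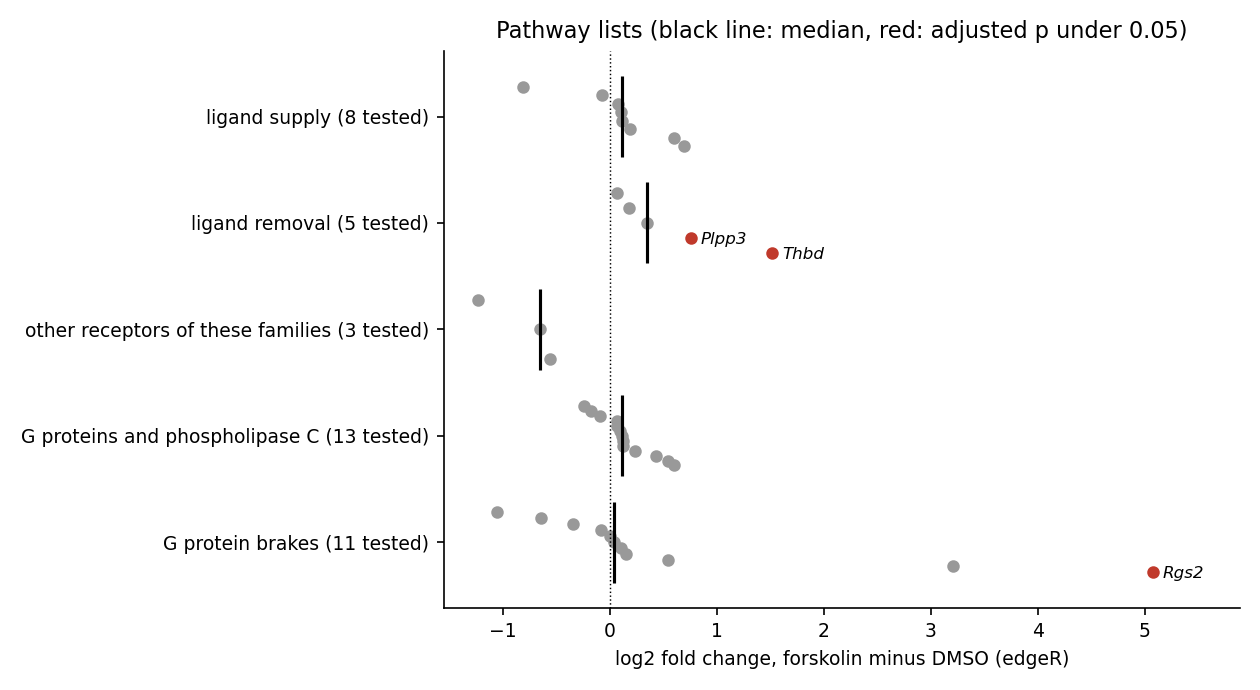
Log2 fold change (horizontal axis, forskolin minus DMSO, edgeR) of each tested gene in 5 pathway lists, with called genes in red and named and a black line at each list's median. Calls are Thbd and Plpp3 among ligand removal and Rgs2 among G protein brakes, and the list of G proteins and phospholipase C has its median at 0.12.

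For each gene that rose, the 2 tested genes with the most similar log2 CPM over the 6 libraries are named as a description, since any gene that differs between the groups will resemble another. Cdr2l and Man1b1 were nearest to Ednra (Pearson r of 0.996 for each). For Ednrb they were Cachd1 and Alpl (0.996 each), of which Cachd1 itself was not called (edgeR adjusted p = 0.102). For S1pr3 they were the phosphodiesterase gene Pde4d (0.998) and Mnt (0.997).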

How the data were processed

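RNA sequencing gave 1 table for 6 libraries. The authors deposited expected counts per gene over exons, in steps of 0.5, with STAR, HOMER and the mm10 build named in the submitters' processing notes. Versions, counting rule and strand setting: not given in the sources used here. Before testing, each count was made whole (ties to even). In R 4.3.3, edgeR 4.0.16 kept 12233 genes by filterByExpr, scaled by TMM and compared forskolin with DMSO by the robust quasi-likelihood test, adjusted by Benjamini-Hochberg over all genes. CPM uses TMM-scaled library sizes, except summed markers (column totals). The SE is the absolute log2 change over the square root of F. Depth was 2770628.5 to 10607997 counts per library, so 3 counts equal 0.279 to 1.17 CPM, for counting error only. Members and lists were chosen with earlier results of these data known. Named are the 10 members, called list genes (up to 4), the 2 most abundant per list and the 2 nearest genes by correlation. Others, including markers, F3, Edn2, Edn3, S1pr4, S1pr5, Agtr1b and Avpr1a, were named after their values were seen. Alternatives used limma 3.58.1, DESeq2 1.42.0, other scalings and filters, a replicate block and left-out libraries. One further pathway list is not reported here. The fit was tested on simulated data with the same dispersion for every gene. There it recovered 57.1% of 2-fold changes and 100% of 4-fold changes, so a smaller change can go uncalled.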

Additional observations from a re-analysis of the deposited data

How the results depend on the processing

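The count of 3 genes called higher held in 13 of 18 alternative settings. It was 2 with any one A or B library left out and 4 without both C libraries; 0 genes were called lower in all 18. Over all genes the 342 calls became 620 with no filter, 553 by DESeq2, 984 by limma-voom with sample quality weights, 648 by the likelihood ratio test and 1229 without both C libraries, and 185 to 485 with 1 library left out. The 3 calls in the pathway lists became 6 with no filter, with quality weights, by the likelihood ratio test and without both C libraries, 5 by limma-voom, and 1 to 3 with 1 library left out. The labels do not say whether the letters pair the groups, so the letters were not taken as pairs. Deviations from the group mean correlated at r of 0.05, 0.13 and 0.15 between same-lettered libraries A, B and C. Forskolin B and C correlated best with the DMSO library of their own letter, and forskolin A with DMSO B (0.10). These values do not settle whether the letters are pairs. With the replicate letter as a block, 649 genes, 5 list genes and the same number of 3 members were called. Directions changed only for genes not called: Agtr1a was at −0.0135 and −0.0168 with upper quartile and library size scaling and Grk2 at −0.0251 and −0.0302. With 1 library left out the log2 changes ran from −0.158 to 0.206 for Agtr1a, −0.550 to 1.41 for Edn1, −0.231 to 0.148 for S1pr2, −0.337 to 0.0491 for Lpar1, −0.110 to 0.0751 for Grk2, −0.0416 to 0.251 for Grk5 and −0.0049 to 0.262 for Rhob. The difference in the S1pr3 to S1pr1 ratio ran from −0.779 to 0.487 and was 0.0689 without both C libraries. The causes were not tested. Counts of Edn1, S1pr1 and Lpar4 were at or near 0 in some libraries, and low expression was not told apart from low depth.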
